A study of Homo sapiens with 24 samples.

Results

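The mitochondrial respiratory chain subunits encoded in the nucleus were followed in total RNA, in polysomal RNA and in the ratio of polysomal to total RNA. Members were the protein-coding genes whose Gencode symbol on hg19 is NDUFA, NDUFB, NDUFC, NDUFS or NDUFV followed only by digits, is an SDH gene from A to D, or begins with UQCR, with COX and a digit from 4 to 8, or with ATP5 and goes on in letters and digits. This rule took 85 of the 19086 protein-coding genes of the count table: 37 of complex I (NADH dehydrogenase), 4 of complex II (succinate dehydrogenase), 8 of complex III (cytochrome bc1), 17 of complex IV (cytochrome c oxidase) and 19 of complex V (ATP synthase). The split follows the symbols, so NDUFA4 is counted with complex I although its protein is now placed in complex IV, and ATP5IF1, an inhibitor of ATP synthase, and COX7A2L, which joins complexes III and IV, are counted with the subunits. A core list of 20 members was set apart, and the other 65 formed the rest. It held 7 subunits of complex I that are conserved from bacteria, NDUFV1 and NDUFV2 among them, the 4 of complex II, UQCRC1, UQCRC2 and UQCRFS1 of complex III, COX4I1, COX5A and COX5B of complex IV, and the alpha, beta and gamma subunits of the F1 head of complex V (ATP5F1A, ATP5F1B and ATP5F1C). The list was drawn up by hand and is not one of catalytic subunits throughout, since the catalytic subunits of complex IV are encoded in mitochondria and the 3 COX genes are supernumerary subunits around them.

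The samples were labelled as A2058 cells, an established human melanoma line, transfected either with a scrambled siRNA (siCTRL) as the control or with one that targets LSM14A (siLSM14A). LSM14A is an RNA-binding protein of processing bodies. The methods give each siRNA at 20 nM. Cells of both kinds were left without treatment (NT) or received 10 mM hydroxyurea (HU), an inhibitor of ribonucleotide reductase that starves replicating DNA of nucleotides, for 2 h. For each of the 4 conditions, 3 replicates gave a library of total RNA and a library of polysomal RNA pooled from the heavy gradient fractions 13 to 17, 24 libraries in all. A culture here means the total and the polysomal library that share a condition and a replicate number, 12 in all. By the methods, cycloheximide, which holds ribosomes on the mRNA and so bears on polysome loading, was given to the cells shortly before they were collected. A2058 is the line named in the labels and in the methods of the polysome profiling, while 1 figure legend of the study names A375, another melanoma line. Every sample shares the transfection step and the single cell line, and knockdown is the only LSM14A model. The labels do not say whether replicates came from separate cultures, so p-values measure the spread between these samples, which may be technical.

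Complexes I to IV pass electrons from NADH and succinate to oxygen and, except complex II, pump protons across the inner mitochondrial membrane, and complex V uses the returning protons to make ATP. Complex II is encoded entirely in the nucleus, whereas the other complexes also need subunits made inside mitochondria from mitochondrial DNA (mtDNA). The nuclear subunits are translated in the cytosol, many of them at the surface of mitochondria, and many of the small accessory subunits are encoded by very short mRNAs. An mRNA with a short coding sequence has room for few ribosomes, which bears on where it sediments in a gradient.

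The sequences around the start codon are shown for 3 members with a high ratio of polysomal to total RNA over the 12 cultures and for 3 with a low one, so that both ends can be read side by side. Each run holds 12 bases of the 5′ UTR, the ATG in capitals and the next 9 coding bases of the canonical transcript, 5′ to 3′, taken from the hg19 genome with the Gencode annotation. The high members are UQCRC1 (chr3:48636435-48648409, minus strand), a core protein of complex III, NDUFV1 (chr11:67373124-67380025, plus strand), the FMN-binding subunit of complex I, and ATP5F1B (chr12:57031959-57039768, minus strand), the catalytic beta subunit of ATP synthase. The low members are NDUFA5 (chr7:123177051-123197958, minus strand), NDUFB3 (chr2:201936156-201950473, plus strand) and NDUFC1 (chr4:140188034-140223705, minus strand), accessory subunits of complex I. SDHB (chr1:17345159-17380527, minus strand), the iron-sulfur subunit of complex II, and NDUFS4 (chr5:52856463-52979168, plus strand), an accessory subunit of complex I, are added for their start motif.
UQCRC1: tgcagctggaagATGgcggcgtcc
NDUFV1: tggcccgccgcgATGctggcaaca
ATP5F1B: ccggactacgccATGttggggttt
NDUFA5: gttggcgctgtcATGgcgggtgtg
NDUFB3: ttgctgtcagacATGgcccatgaa
NDUFC1: gggccacgcaagATGgcgccgtcc
SDHB: tcaggagccaagATGgcggcggtg
NDUFS4: gcctgcagcaagATGgcggcggtg

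The TISU element, a start codon motif of mRNAs with very short 5′ UTRs that holds the ATG and the bases GCGGC after it, was searched on the mRNA strand at the annotated start codon alone. It stood at the start codon of UQCRC1, SDHB and NDUFS4, that is 3 of the 75 tested members with an annotated start context (4.0%), against 145 of 12137 tested genes (1.19%). These 3 members lay at different places in the order of ratios, with mean log2 ratios over 12 cultures of 1.73 for UQCRC1, 0.29 for SDHB and -0.16 for NDUFS4. The median of the 72 members without the motif was 0.30. A match is a description of the letters and not a tested element.

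The libraries held 24789280 to 40645263 counts in total RNA and 28776634 to 44897501 in polysomal RNA over all genes of the table. Unless another scaling is named, levels and log2 values below were scaled with TMM factors to the protein-coding genes that passed the filter on low counts. Shares of counts are raw shares of the protein-coding counts. Shares of counts and scaled levels are relative to the rest of each library, without a spike-in, so a shift of all mRNA onto or off polysomes would not be seen. LSM14A itself was at 80.9 to 91.0 CPM (counts scaled by library size) in total RNA of siCTRL cells and at 6.14 to 8.31 CPM in siLSM14A cells. Melanocyte-lineage markers were present in total RNA, with median levels of 781 CPM for DCT and 605 CPM for SOX10 but 7.97 for MLANA, while the blood marker PTPRC was at 0.0942 and the epithelial marker EPCAM at 0.0326. The 13 mRNAs of mtDNA took 6.85 to 8.88% of counts in total RNA and 0.630 to 1.95% in polysomal RNA.

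The members took 1.14 to 1.22% of the protein-coding counts of the total RNA libraries and 1.33 to 1.65% of those of the polysomal libraries, and the ranges did not overlap. These counts include the mRNAs of mtDNA, at 6.85 to 8.88% in total and 0.630 to 1.95% in polysomal RNA. A smaller mtDNA share raises the share of all other genes, and its part in this gap was not tested. In these bulk samples, fewer cells that hold an mRNA and less of it per cell cannot be told apart. Per kilobase of all annotated exons in total RNA of siCTRL NT cells, the highest levels were those of ATP5F1B at 489.6 ± 13.8 CPM per kb (mean ± SD, n = 3) and of NDUFS5 and NDUFA1, accessory subunits of complex I, at 318 ± 15.1 and 297 ± 20.1. This order depended on the length used, since the exons of a gene together can be far longer than its canonical transcript. Per kilobase of canonical transcript, a measure chosen after seeing the data, UQCRH, the hinge protein of complex III, was at 636 ± 29.2, ATP5F1B at 623 ± 17.6, COX4I1 at 472 ± 9.63 and NDUFS5 at 352 ± 16.7 CPM per kb. Within the core list, NDUFS1, the largest subunit of complex I, an iron-sulfur protein, was at 15.5 ± 0.618 CPM per kb of exon and 16.2 ± 0.646 per kb of canonical transcript. SDHD, a membrane anchor of complex II, was at 11.03 ± 0.756 and 22.99 ± 1.58, and NDUFS7, which carries the last cluster before ubiquinone, at 4.49 ± 0.248 and 44.2 ± 2.44.

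Several isoforms known from other tissues were near or at 0 in these cells. COX4I2, the isoform of subunit 4 known from lung and hypoxia, and the muscle isoforms COX6A2 and COX7A1 had no count in any of the 24 libraries, COX7B2 had at most 1, COX6B2 and COX8C, known from testis, at most 3, and ATP5MGL at most 4. NDUFA7, a subunit of complex I, had 0 to 10 counts. These 8 members did not pass the filter on low counts in any comparison, so that 76 or 77 were tested. NDUFV2, an iron-sulfur subunit of complex I, had 0 to 33 counts per library with a median of 7 and was tested only in some comparisons, and NDUFA13 had 5 to 26. These low counts are uncertain as levels: 71.6% of the exonic bases of NDUFV2, 79.0% of those of NDUFA13 and 67.5% of those of NDUFA7 were not shared with another gene on the same strand. NDUFB8 (66.2%), COX8A (64.6%), SDHA (78.3%), NDUFC2 (81.4%), SDHD (88.6%), UQCR11 (89.0%), NDUFA9 (89.4%) and NDUFA11 (90.3%) share exons in the same way, so their levels carry the same uncertainty. So do, among others, ATP5PO (84.5%), ATP5MK (84.6%) and COX6A1 (86.9%). The authors took the counts from STAR, whose gene counting by default leaves out reads that fall on several genes or map to several places, which also touches near-identical copies such as the paralogs ATP5MC1, ATP5MC2 and ATP5MC3. Whether these defaults and the strand setting were kept is not given in the sources used here.

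**Figure D1:**
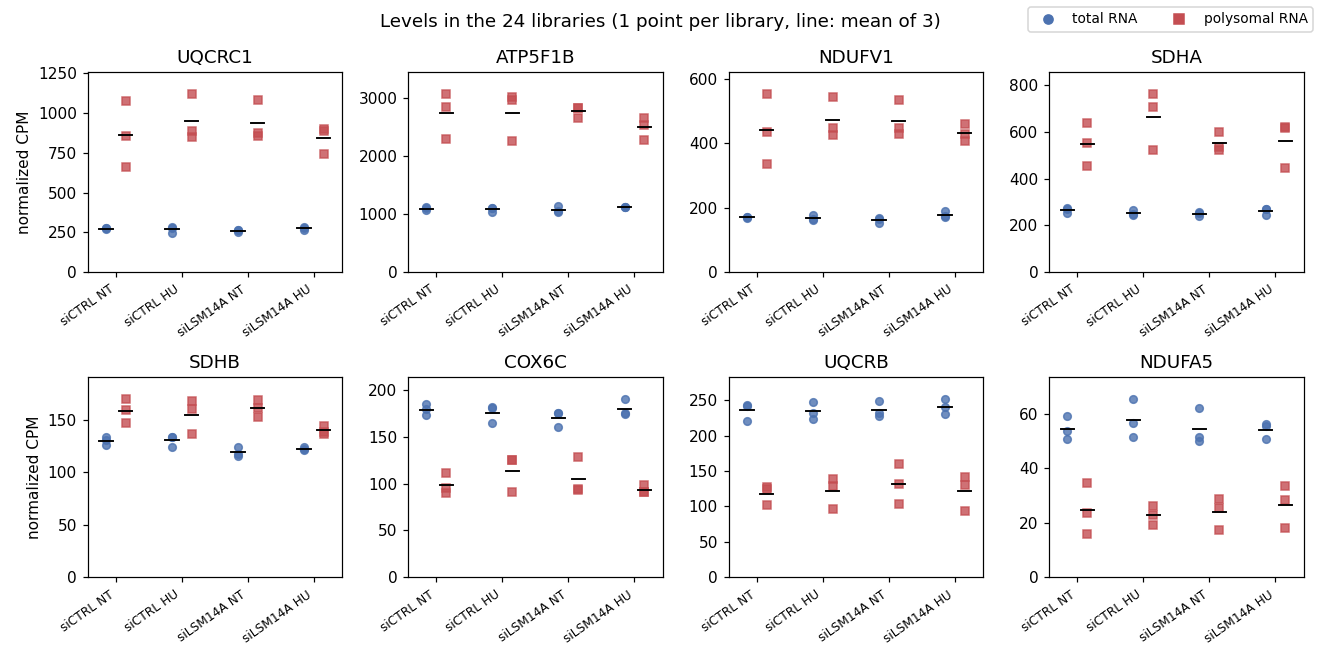
Normalized level (CPM, y axis of each panel) of 8 members in the 24 libraries, grouped by fraction and condition on the x axis, with 1 point per library and a line at the mean of 3. UQCRC1, ATP5F1B, NDUFV1 and SDHA lie higher in every polysomal library than in any total RNA library, SDHB is higher by less (116 to 134 against 136 to 169 CPM), and COX6C, UQCRB and NDUFA5 lie lower in every polysomal library than in any total RNA library.

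Which members were richer in polysomal than in total RNA was asked first, within each condition. More members were higher in polysomal RNA than lower in each condition (edgeR quasi-likelihood test, adjusted p under 0.05 over all genes tested). In siCTRL NT cells, 35 of 76 members were higher and 13 lower in polysomal RNA, where 31.4% of all genes tested were higher and 32.3% lower. In siCTRL HU cells, 44 of 76 were higher and 7 lower, beside 36.2% and 37.4% of all genes. In siLSM14A NT cells, 43 of 76 were higher and 7 lower, beside 32.1% and 32.3% of all genes, and in siLSM14A HU cells 35 of 77 were higher and 16 lower, beside 32.8% and 34.1%. The median log2 ratio of the members tested was 0.25, 0.35, 0.46 and 0.19 in siCTRL NT, siCTRL HU, siLSM14A NT and siLSM14A HU, against -0.030, -0.048, -0.027 and -0.039 over all genes tested. Of the members, 32 were called higher in all 4 conditions and 7 lower in all 4, no member was called higher in one condition and lower in another, and no library is shared between these tests. How many of all genes were called alike in all 4 conditions was not counted. Calls in all 4 conditions, here and below, therefore describe single members without a background share. The number called depended on single cultures: without replicate 2, 25 of 75 rather than 48 of 76 members were called in siCTRL NT, and without replicate 1, 32 rather than 51 of 77 in siLSM14A HU cells. The share of all genes called fell alongside, from 63.8 to 29.5% and from 66.8 to 45.8%.

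Log2 ratios of single genes are given as a mean over cultures ± SD or as the fitted value of a condition ± SE. UQCRC1 had the highest mean log2 ratio over the 12 cultures, 1.73 ± 0.25 (SD), and other high values were NDUFV1 with 1.40 ± 0.22, ATP5F1B with 1.29 ± 0.18 and SDHA with 1.16 ± 0.24. The lowest were NDUFA5 with -1.21 ± 0.36, UQCRB, a small subunit of complex III, with -0.96 ± 0.21, NDUFB3 with -0.94 ± 0.21, NDUFC1 with -0.86 ± 0.21 and COX6C, a small subunit of complex IV, with -0.79 ± 0.22. These members were chosen as the ends of the order by this same mean, and most neighbours within either end differed by less than the SD over cultures.

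**Figure D2:**
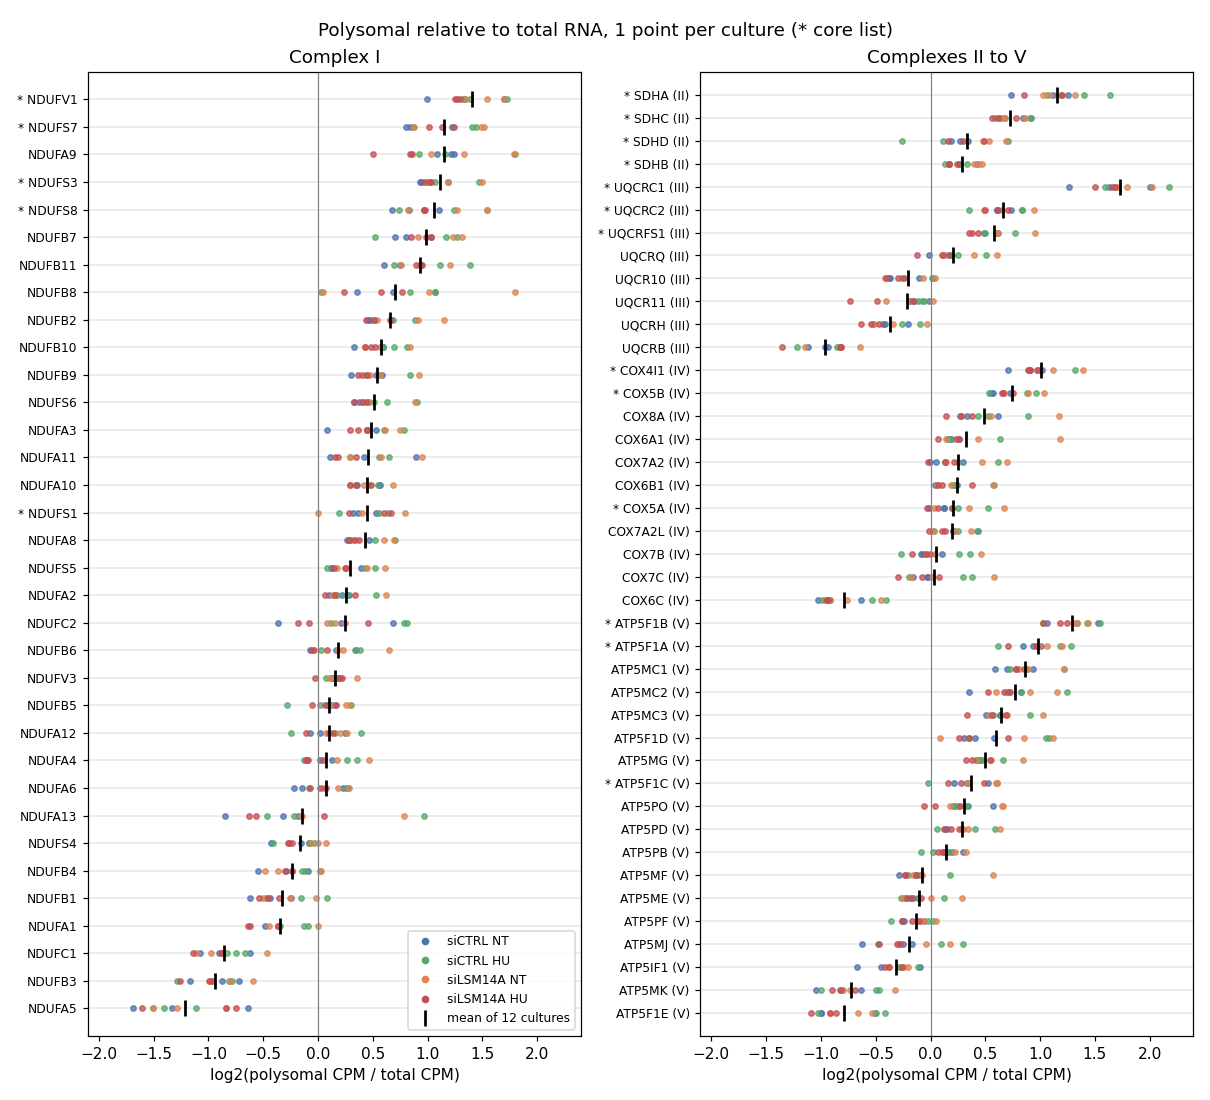
Log2 of polysomal over total RNA for members tested in all 4 conditions, 1 of them left out, with 1 point per culture coloured by condition and a black tick at the mean of 12; the left panel holds complex I and the right panel complexes II to V, and an asterisk marks the core. The order runs from UQCRC1 (1.73) and NDUFV1 (1.40) to UQCRB (-0.96) and NDUFA5 (-1.21), and points of different conditions are mixed within most members.

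Complex I takes electrons from NADH through FMN and a chain of iron-sulfur clusters to ubiquinone. Of its 35 members tested in siCTRL NT cells, 16 were higher and 6 lower in polysomal RNA (median log2 ratio 0.33). In siCTRL HU cells 21 were higher and 3 lower (0.48), in siLSM14A NT cells 20 and 3 (0.45), and in siLSM14A HU cells, with 36 tested, 18 and 7 (0.22). Over all genes tested, 31.4, 36.2, 32.1 and 32.8% were higher and 32.3, 37.4, 32.3 and 34.1% lower in these conditions. NDUFV1 was at 173, 171 and 169 CPM in total RNA and at 437, 553 and 337 in polysomal RNA of siCTRL NT cells, and no polysomal value overlapped with the total. Its log2 ratio was 1.37 ± 0.17 (adjusted p = 0.000449) there and 1.37, 1.50, 1.55 and 1.27 in siCTRL NT, siCTRL HU, siLSM14A NT and siLSM14A HU. Other core subunits of complex I were also higher in each condition: over the 12 cultures NDUFS7 averaged 1.15, NDUFS3 1.11, NDUFS8 1.06 and NDUFS1 0.45. NDUFA9, a subunit that joins the arms of the complex, averaged 1.15 at low counts of 160 to 536 per library. NDUFV2 was called lower in siLSM14A HU cells, -1.17 ± 0.46 (adjusted p = 0.0483), and this call was lost in every alternative in which the gene was tested, for example with the replicate as a block (adjusted p = 0.0668 by edgeR). In siCTRL NT cells it did not pass the filter on low counts, and it was called lower in the 3 alternatives that took it in: at -2.04 without the filter (adjusted p = 0.0379 by edgeR), -2.05 with all 24 libraries in one fit (0.0333) and -2.69 without replicate 3 (0.0259).

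Among the accessory subunits of complex I, NDUFB7, NDUFB10, NDUFB11, NDUFB2, NDUFB8, NDUFB9, NDUFA8, NDUFA10 and NDUFS6 were called higher in all 4 conditions, with 0.85, 1.01, 1.18 and 0.95 for NDUFB7 and 0.78, 1.09, 1.002 and 0.92 for NDUFB11 in siCTRL NT, siCTRL HU, siLSM14A NT and siLSM14A HU. NDUFA5 lay at the other end. It was at 50.8, 59.1 and 53.6 CPM in total RNA and at 15.8, 23.4 and 34.4 in polysomal RNA of siCTRL NT cells, and every polysomal value was below every total value. Its log2 ratio was -1.16 ± 0.25 (adjusted p = 0.00395) there and -1.16, -1.33, -1.17 and -1.02 over the 4 conditions, and its SD over the 12 cultures, 0.36, was wider than that of UQCRC1. NDUFB3 was at 55.2, 59.7 and 56.4 CPM in total and 33.5, 26.6 and 30.8 in polysomal RNA, and NDUFC1 at 52.2, 60.6 and 52.9 and 33.9, 28.7 and 28.3. Both were called lower in all 4 conditions, with -0.92, -0.93, -0.76 and -1.07 for NDUFB3 and -0.87, -0.74, -0.79 and -0.97 for NDUFC1.

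Complex II oxidises succinate and has only 4 subunits. All 4 had positive log2 ratios in each condition, and 3 were called higher in siCTRL NT, siCTRL HU and siLSM14A HU cells and 4 in siLSM14A NT cells (median log2 ratios 0.54, 0.50, 0.49 and 0.67). In the same order, 31.4, 36.2, 32.8 and 32.1% of all genes tested were higher. SDHA, the flavoprotein, was at 268, 254 and 273 CPM in total and 639, 551 and 453 in polysomal RNA of siCTRL NT cells, a log2 ratio of 1.05 ± 0.13 (adjusted p = 0.000502), and SDHC, a haem-binding membrane anchor, was at 164, 172 and 177 and 294, 323 and 275, a ratio of 0.80 ± 0.10 (adjusted p = 0.000482). SDHB, the iron-sulfur subunit, was at 126, 134 and 131 CPM in total and 169, 159.6 and 147 in polysomal RNA, and its ratio was 0.28 ± 0.10 (adjusted p = 0.0329). In siLSM14A HU cells SDHB was at 0.19 ± 0.078 (adjusted p = 0.0564) and was not called. SDHD was at 32.1, 28.4 and 31.9 CPM and 38.7, 36.0 and 36.4 CPM, with a ratio of 0.26 ± 0.11 (adjusted p = 0.0660) in siCTRL NT and 0.22 ± 0.17 (adjusted p = 0.254) in siCTRL HU cells, neither called.

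Complex III moves electrons from ubiquinol to cytochrome c, and its members spread over the whole range. Of 8 members, 3 were higher and 2 lower in siCTRL NT cells (median log2 ratio -0.013), 4 and 1 in siCTRL HU cells (0.14), 3 and 1 in siLSM14A NT cells (0.15) and 3 and 4 in siLSM14A HU cells (-0.13). Beside these, 31.4, 36.2, 32.1 and 32.8% of all genes tested were higher and 32.3, 37.4, 32.3 and 34.1% lower. The counts of higher members were near these shares in most conditions. UQCRC1 was at 277, 268 and 277 CPM in total and 857, 1075 and 664 CPM in polysomal RNA of siCTRL NT cells. In siCTRL HU cells it was at 276, 248 and 281 and 886, 1119 and 849 CPM, in siLSM14A NT cells at 262, 266 and 252 and 859, 1082 and 873, and in siLSM14A HU cells at 282, 279 and 262 and 889, 898 and 741. Polysomal libraries were above total libraries throughout, and the log2 ratio was 1.66 ± 0.17 (adjusted p = 0.000296) in siCTRL NT cells and 1.66, 1.83, 1.87 and 1.62 over the 4 conditions. UQCRC2, its core partner, and UQCRFS1, the Rieske iron-sulfur protein, were also higher in all 4, with means of 0.66 and 0.58. UQCRB was lower in all 4. It was at 221, 243 and 242 CPM in total and 102, 125 and 127 in polysomal RNA of siCTRL NT cells, a log2 ratio of -1.001 ± 0.12 (adjusted p = 0.000384). UQCRH, the small hinge protein, was called lower in both siCTRL NT and siLSM14A HU cells, at -0.35 and -0.55.

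Complex IV passes electrons to oxygen, and its catalytic subunits are encoded in mtDNA. Of its 11 nuclear members tested, 4 were higher and 1 lower in siCTRL NT cells (median log2 ratio 0.17), 7 and 1 in siCTRL HU cells (0.35), 6 and 1 in siLSM14A NT cells (0.40) and 3 and 1 in siLSM14A HU cells (0.11). All genes tested were higher in 31.4, 36.2, 32.1 and 32.8% and lower in 32.3, 37.4, 32.3 and 34.1% of cases. The counts of higher members in siCTRL NT and siLSM14A HU cells were near these shares. COX4I1, the ubiquitous form of the largest nuclear subunit, was at 352, 363 and 366 CPM in total and 662, 735 and 597 in polysomal RNA of siCTRL NT cells, a ratio of 0.88 ± 0.11 (adjusted p = 0.000444), and was higher in all 4 conditions with COX5B (0.62, 0.82, 0.90 and 0.68 in siCTRL NT, siCTRL HU, siLSM14A NT and siLSM14A HU) and COX8A (0.41, 0.64, 0.71 and 0.27). COX5A averaged 0.21 over the 12 cultures and was called higher in siCTRL HU and siLSM14A NT cells. COX6C was the one member of the complex called lower, in each condition. It was at 173, 184 and 179.8 CPM in total and 111, 90.2 and 95.001 in polysomal RNA of siCTRL NT cells, a ratio of -0.86 ± 0.11 (adjusted p = 0.000505).

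Complex V couples a catalytic F1 head to a membrane rotor. Of its 18 members tested, 9 were higher and 4 lower in siCTRL NT cells (median log2 ratio 0.28), 9 and 2 in siCTRL HU cells (0.30), 10 and 2 in siLSM14A NT cells (0.49) and 8 and 4 in siLSM14A HU cells (0.14). The shares of all genes tested were 31.4, 36.2, 32.1 and 32.8% higher and 32.3, 37.4, 32.3 and 34.1% lower. ATP5F1B was at 1124, 1063 and 1100.5 CPM in total and 2844, 3067 and 2298 in polysomal RNA of siCTRL NT cells, with no overlap and a ratio of 1.32 ± 0.13 (adjusted p = 0.000293). Within the F1 head, whose subunits are needed in fixed proportions, the ratios differed: over the 12 cultures the alpha subunit ATP5F1A averaged 0.98 ± 0.19 (SD), the beta subunit ATP5F1B 1.29 ± 0.18, the gamma subunit ATP5F1C 0.37 ± 0.20, the delta subunit ATP5F1D 0.60 ± 0.36 and the epsilon subunit ATP5F1E -0.79 ± 0.25. ATP5F1E was called lower in all 4 conditions, as was ATP5MK, a small membrane subunit that averaged -0.73 ± 0.22. The genes of the rotor ring, ATP5MC1, ATP5MC2 and ATP5MC3, were called higher in all 4, with means of 0.86, 0.77 and 0.64. ATP5IF1, the inhibitor, was called lower in siCTRL NT (-0.41) and siLSM14A HU cells (-0.36).

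The core list was drawn up by hand with earlier results of these data known, so its comparison with the others is a description. Members of the core list were higher in polysomal RNA almost throughout. Of 19 tested, 17 were higher in siCTRL NT, 18 in siCTRL HU and 19 in siLSM14A NT cells with none lower, and in siLSM14A HU cells 17 of 20 were higher and 1, NDUFV2, lower. Their median log2 ratios were 0.88, 1.06, 1.11 and 0.78. Without COX4I1, COX5A and COX5B, left out after seeing the data, 15 of 16, 15 of 16, 16 of 16 and 15 of 17 were higher, with medians of 0.90, 1.13, 1.14 and 0.88. Of the 57 other members tested, 18 were higher and 13 lower in siCTRL NT cells, 26 and 7 in siCTRL HU, 24 and 7 in siLSM14A NT and 18 and 15 in siLSM14A HU cells, with medians of 0.15, 0.26, 0.25 and 0.059. Of all genes tested, 31.4, 36.2, 32.1 and 32.8% were higher and 32.3, 37.4, 32.3 and 34.1% lower in these conditions. Culture by culture, the median of the core lay between 0.68 and 1.28 and that of the others between 0.018 and 0.47. The core was above the others in 12 of 12 cultures, by 0.56 to 0.89. Core members also had longer coding sequences, with a median of 840 bases over 19 members against 330 over 56 others. The part of coding length in the gap between core and others was not tested.

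The ratio also went with coding length among the members. Over 75 members with an annotated coding sequence, Spearman's rho between coding length and the mean log2 ratio was 0.67, and it was 0.41 over 19 core members and 0.53 over 56 others. Over 12193 genes tested it was -0.015. Coding lengths of these genes ran from 75 to 26775 bases (median 1419), against 153 to 2181 (median 411) for the 75 members. Other genes in the members' range of lengths were not looked at apart, so the 2 values of rho cover unlike ranges. Within single cultures the members' rho ran from 0.48 to 0.76. The points share the same libraries, and genes are not independent replicates, so these are descriptions. With the members split by coding length into groups of 25, the shortest had 153 to 318 bases, and there 11 of 25 members were above 0 and the median log2 ratio was -0.11. In the middle group, 318 to 507 bases, 20 of 25 were above 0 (median 0.32), and in the longest, 516 to 2181 bases, 24 of 25 were (0.58). NDUFA5 lay in the middle group with the lowest ratio of all, so length did not order every member.

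Base composition moved with the ratio as well. Over all 12240 genes tested, rho between the GC content of the exons and the mean log2 ratio was 0.68, and over 76 members it was 0.37. With a GC correction of each library, the core medians were 0.77, 0.96, 1.03 and 0.77 in siCTRL NT, siCTRL HU, siLSM14A NT and siLSM14A HU, with 15, 19, 19 and 18 core members higher and none lower, beside 26, 27.9, 27.6 and 28.5% of all genes higher. The medians of the others were 0.063, 0.31, 0.33 and 0.14, and over all members the median in siLSM14A HU cells rose from 0.19 to 0.34 with the correction. Members' rho with coding length in the 4 conditions was 0.65, 0.55, 0.60 and 0.64 with the correction and 0.70, 0.61, 0.65 and 0.65 without it, and their rho with GC content turned negative with it, at -0.37, -0.45, -0.35 and -0.27. NDUFA1, called lower in siCTRL NT and siLSM14A HU cells and not called in the others, was at 0.16 in siCTRL HU and 0.048 in siLSM14A NT cells with the correction, against -0.17 and -0.23 without it, and its call in siCTRL NT cells was lost with it (-0.16 against -0.40). The part of base composition in the ratios was not tested beyond this correction.

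**Figure D3:**
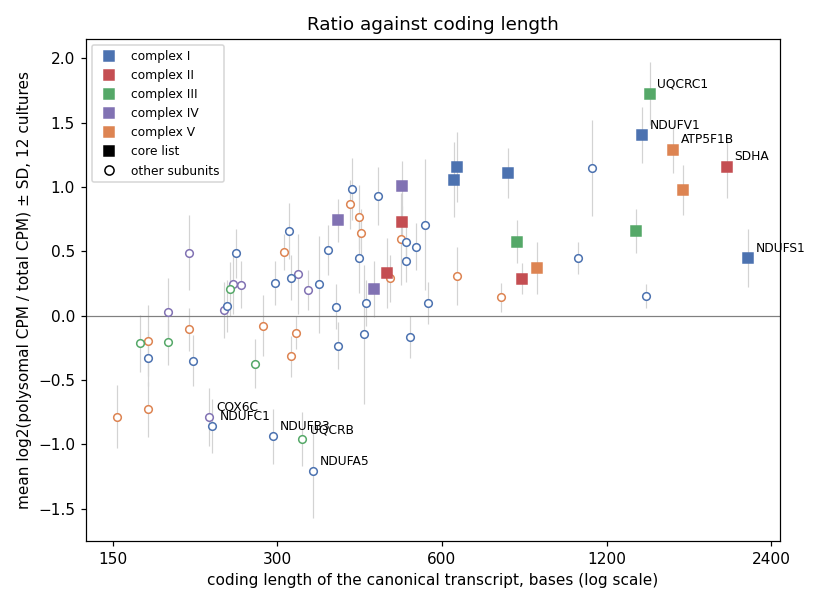
Mean log2 ratio of polysomal to total RNA over 12 cultures (y axis, bars are SD) against coding length in bases (x axis, log scale) for members with an annotated coding sequence, 1 of them left out; filled squares are core members and open circles the others. Members under 318 bases lie on both sides of 0, from -0.94 to 0.66, and those above 516 bases lie above 0 with 1 exception.

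Genes that work with the members were set beside them. The 13 protein-coding genes of mtDNA, whose mRNAs are translated inside mitochondria, were all lower in the polysomal libraries in each condition, with median log2 ratios of -2.58, -2.63, -2.53 and -2.41 in siCTRL NT, siCTRL HU, siLSM14A NT and siLSM14A HU. Culture medians of mtDNA ran from -3.16 to -2.00. Of 44 assembly factors of the complexes, 13 were higher and 18 lower in siCTRL NT cells, 14 and 18 in siCTRL HU, 13 and 16 in siLSM14A NT and 12 and 21 in siLSM14A HU cells. Beside these, 31.4, 36.2, 32.1 and 32.8% of all genes tested were higher and 32.3, 37.4, 32.3 and 34.1% lower. The medians of the assembly factors were -0.15, -0.18, -0.16 and -0.26. Those over all genes tested were below 0 too, at -0.030, -0.048, -0.027 and -0.039, and those of the members above 0. FOXRED1 (mean 1.28) and ECSIT (1.16), both assembly factors of complex I, were highest, and TMEM126B (-1.55), also of complex I, and LYRM7 (-1.38), a chaperone of the Rieske protein, were lowest. Among the nuclear genes of the chain that the symbol rule leaves out, CYC1, cytochrome c1 of complex III, had ratios of 1.13, 1.32, 1.30 and 1.12, NDUFAB1, the acyl carrier protein in complex I, 0.38, 0.56, 0.66 and 0.50, and CYCS, cytochrome c itself, -0.66, -0.76, -0.52 and -0.53, all of them called.

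**Figure D4:**
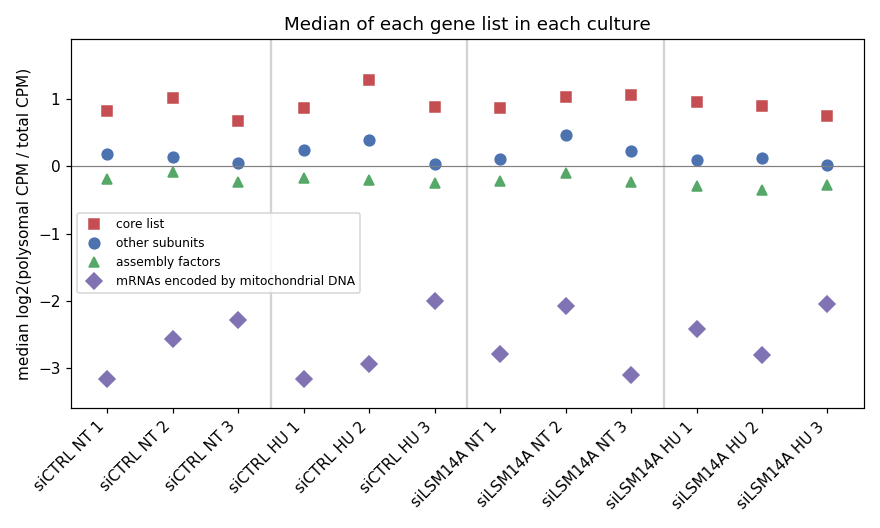
Median log2 ratio of polysomal to total RNA in each of the 12 cultures (x axis, by condition) for core members, other members, assembly factors and mtDNA genes. Core medians (0.68 to 1.28) are above those of the other members in every culture, assembly factors lie below 0 (-0.36 to -0.084) and mtDNA genes far below (-3.16 to -2.00).

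Whether LSM14A knockdown, HU or both went with a change in the members was asked next, in total RNA, in polysomal RNA and in translation efficiency (TE), the polysomal relative to the total difference between conditions. No member passed an adjusted p of 0.05 in any of these comparisons by edgeR, and none with DESeq2. This held for the fits without a replicate block. In these comparisons values are given as log2 differences ± SE of the edgeR fit, for the members with the smallest p in either direction. In the main edgeR fits the smallest adjusted p of a member was 0.191, in total RNA of siLSM14A HU against siCTRL HU. Next was 0.336, in total RNA of siLSM14A NT against siCTRL NT. Under HU the smallest adjusted p was 0.0602 by DESeq2 and 0.0624 by edgeR with the GC correction, both without a block. The comparisons share libraries with each other, since each condition enters more than 1 of them.

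In untreated cells, siLSM14A against siCTRL, 0 of 77 members passed in total RNA, where 0.566% of all genes did, and 5 had an unadjusted p under 0.05, all lower in siLSM14A cells (5 by DESeq2), where 10.8% of all genes had. The median difference was -0.043 with a median SE of 0.065, and it was -0.081 without siLSM14A NT replicate 2 and -0.028 without replicate 3. The count of 5 was 12 without siLSM14A NT replicate 2, 0 without siCTRL NT replicate 3 and 0 with all 24 libraries in one fit. ATP5MF, a membrane subunit of ATP synthase, differed by -0.19 ± 0.066 and ATP5PB, the b subunit of its peripheral stalk, by -0.14 ± 0.052. UQCRFS1 and NDUFA12, an accessory subunit of complex I, had the smallest p among the higher members, at 0.064 ± 0.047 and 0.083 ± 0.067. In polysomal RNA 0 of 76 passed (0.0162% of all genes) and 0 had an unadjusted p under 0.05 by edgeR or by DESeq2 (1.96%), with a median difference of 0.14 and a median SE of 0.18. NDUFB2 was at 0.31 ± 0.18 and COX5A at 0.27 ± 0.17, ATP5PB at -0.14 ± 0.14 and COX7A2L at -0.080 ± 0.15. In TE 0 of 77 passed (0% of all genes) and 0 had an unadjusted p under 0.05 (1 by DESeq2), against 0.87% of all genes. The median difference was 0.18, with 71 of 77 members above 0, and it was -0.0072 over all genes tested. Members share the same libraries, so here and below such counts of signs are not of independent values. SDHD was at 0.30 ± 0.15, COX4I1 at 0.30 ± 0.18, SDHC at -0.067 ± 0.13 and COX7A2L at -0.075 ± 0.15. The members' median depended largely on 1 culture: without siLSM14A NT replicate 2 it was 0.056 in TE and 0.00062 in polysomal RNA. The core medians were then 0.14 in TE and 0.057 in polysomal RNA, against 0.16 and 0.11 with all cultures. Without siLSM14A NT replicate 3 the polysomal median of the members was 0.21.

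In HU-treated cells, siLSM14A against siCTRL, 0 of 77 members passed in total RNA, where 0.802% of all genes did. An unadjusted p under 0.05 was reached by 8, 3 higher and 5 lower in siLSM14A cells (8 by DESeq2), beside 8.54% of all genes, and by 2 with all 24 libraries in one fit. The median difference was 0.012, and -0.0049 to 0.015 with 1 culture left out. Replicates of these conditions deviated together by number, and with the replicate as a block 7 of 77 members passed, 5 lower and 2 higher, against 6.85% of all genes, so the members' share was near that of all genes. ATP5MK was at 91.2, 96.4 and 90.8 CPM in siCTRL HU and 75.1, 84.3 and 81.6 in siLSM14A HU cells, without overlap, a difference of -0.22 ± 0.043 (adjusted p = 0.000394) in the blocked edgeR fit. ATP5PB was at 194, 214 and 195 and 169, 181 and 176 CPM, -0.20 ± 0.042 (adjusted p = 0.000680), and SDHD at 29.3, 33.5 and 35.2 and 26.96, 27.5 and 29.2 CPM, -0.24 ± 0.056 (adjusted p = 0.00344). Lower as well by the blocked edgeR fit were ATP5ME, -0.15 ± 0.042 (adjusted p = 0.0148), and ATP5PF, -0.15 ± 0.042 (adjusted p = 0.0177), also subunits of complex V. UQCR11, a small subunit of complex III, was higher, at 12.6, 12.3 and 11.5 against 14.2, 14.2 and 15.8 CPM, 0.28 ± 0.075 (adjusted p = 0.0121), and so was NDUFA9, at 6.16, 4.94 and 4.88 against 6.995, 7.23 and 6.34 CPM, 0.36 ± 0.104 (adjusted p = 0.0209), both with few counts and exons shared with another gene. ATP5MK and SDHD share exons with another gene too.

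In polysomal RNA of the same cells 0 of 76 passed (0.0653% of all genes), and 2 had an unadjusted p under 0.05, both lower (1 by DESeq2), beside 4.99% of all genes. The median difference was -0.17 with a median SE of 0.16. ATP5MK was at -0.37 ± 0.17 and NDUFC2 at -0.43 ± 0.20, NDUFA5 at 0.23 ± 0.22 and NDUFS1 at 0.13 ± 0.16. In TE 0 of 77 passed (0% of all genes), and 1 had an unadjusted p under 0.05 and was lower (3 by DESeq2), beside 3.85% of all genes. The median was -0.17 with 69 of 77 members below 0, and it was 0.0080 over all genes tested. COX8A was at -0.35 ± 0.16, UQCR11 at -0.37 ± 0.18, NDUFA5 at 0.33 ± 0.26 and SDHD at 0.12 ± 0.21. Without siCTRL HU replicate 2 the members' median was -0.076 in TE and -0.052 in polysomal RNA, so this shift, too, depended largely on 1 culture. Without siCTRL HU replicate 3 the members' median was -0.23 in TE and -0.26 in polysomal RNA.

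HU against NT in siCTRL cells gave no call among the members. In total RNA 0 of 76 passed (0% of all genes) and 0 had an unadjusted p under 0.05 by edgeR or by DESeq2 (1.44%), with a median difference of 0.0072 and a median SE of 0.060, and the median ran from -0.013 to 0.032 with 1 culture left out. ATP5MF was at 0.13 ± 0.079, COX6A1 at 0.12 ± 0.072, SDHA at -0.060 ± 0.054 and NDUFA13, at 5 to 26 counts, at -0.61 ± 0.49. In polysomal RNA 0 of 76 passed (0% of all genes) and 1 had an unadjusted p under 0.05 and was higher (1 by DESeq2), beside 2.1%, with a median of 0.17. ATP5F1D was at 0.43 ± 0.20, NDUFS6 at 0.31 ± 0.17, ATP5PB at -0.16 ± 0.15 and NDUFA10 at -0.10 ± 0.16. In TE 0 of 77 passed (0% of all genes) and 0 had an unadjusted p under 0.05 by either tool (2.31%). The median was 0.16 with 64 of 77 members above 0, and it was -0.0067 over all genes tested. ATP5F1D was at 0.42 ± 0.23, ATP5MC2 at 0.31 ± 0.18, ATP5PB at -0.17 ± 0.14 and NDUFA5 at -0.18 ± 0.30. Without siCTRL HU replicate 2 the TE median was 0.036 and the polysomal median 0.040, and without siCTRL NT replicate 3 the TE median was 0.103.

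HU against NT in siLSM14A cells gave no call in total RNA either, with 0 of 77 members and 0% of all genes past the threshold. An unadjusted p under 0.05 was reached by 7, all higher with HU (9 by DESeq2), beside 5.2% of all genes. With all 24 libraries in one fit 0 did, and with 1 culture left out 3 to 8 did. The median difference was 0.053, 0.085 without siLSM14A NT replicate 2 and 0.019 without replicate 3. ATP5MF was at 0.26 ± 0.071, ATP5PO, a peripheral stalk subunit, at 0.24 ± 0.071, ATP5MK at -0.13 ± 0.063 and SDHD at -0.11 ± 0.072. In polysomal RNA 0 of 76 passed (0% of all genes) and 0 had an unadjusted p under 0.05 by edgeR (1 by DESeq2), beside 0.871% of all genes, with a median of -0.16. SDHD was at -0.35 ± 0.16, UQCRFS1 at -0.26 ± 0.14, NDUFA5 at 0.16 ± 0.26 and NDUFS1 at 0.12 ± 0.19. In TE 0 of 77 passed (0% of all genes), and 4 had an unadjusted p under 0.05, all lower with HU (5 by DESeq2), beside 1.41% of all genes. The median was -0.24 with 75 of 77 members below 0, and it was 0.0054 over all genes tested. NDUFA9 was at -0.66 ± 0.26, UQCRFS1 at -0.35 ± 0.14, NDUFA5 at 0.17 ± 0.30 and NDUFS1 at 0.089 ± 0.21. Without siLSM14A NT replicate 2 the TE median was -0.11 and the polysomal median -0.025.

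Whether the HU response differed between the siRNAs was tested as an interaction, where a negative value means a lower response in siLSM14A cells. In total RNA 0 of 77 members passed (0% of all genes), 1 had an unadjusted p under 0.05 and was positive (1 by DESeq2), beside 2.9% of all genes, and the median was 0.053, or 0.024 without siCTRL NT replicate 2 and 0.027 without siLSM14A NT replicate 3. ATP5MC2 was at 0.18 ± 0.076, NDUFV1 at 0.15 ± 0.079, SDHD at -0.20 ± 0.11 and ATP5MK at -0.13 ± 0.087. In polysomal RNA 0 of 76 passed (0% of all genes) and 0 had an unadjusted p under 0.05 by edgeR (1 by DESeq2), beside 1.07% of all genes, with a median of -0.30. ATP5MJ, a small membrane subunit of complex V, was at -0.51 ± 0.24, COX8A at -0.47 ± 0.24, NDUFA5 at 0.30 ± 0.40 and NDUFS1 at 0.13 ± 0.27. In TE 0 of 77 passed (0% of all genes) and 6 had an unadjusted p under 0.05, all negative (8 by DESeq2), beside 1.9% of all genes. The median was -0.39 with a median SE of 0.26, and 74 of 77 members were below 0. Over all genes tested the median was 0.015. ATP5MJ was at -0.63 ± 0.26, COX5A at -0.55 ± 0.24, NDUFA5 at 0.35 ± 0.45 and ATP5PB at 0.051 ± 0.17. Without siLSM14A NT replicate 2 the TE median was -0.25 and the polysomal median -0.16, and without siCTRL HU replicate 2 they were -0.27 and -0.16.

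**Figure D5:**
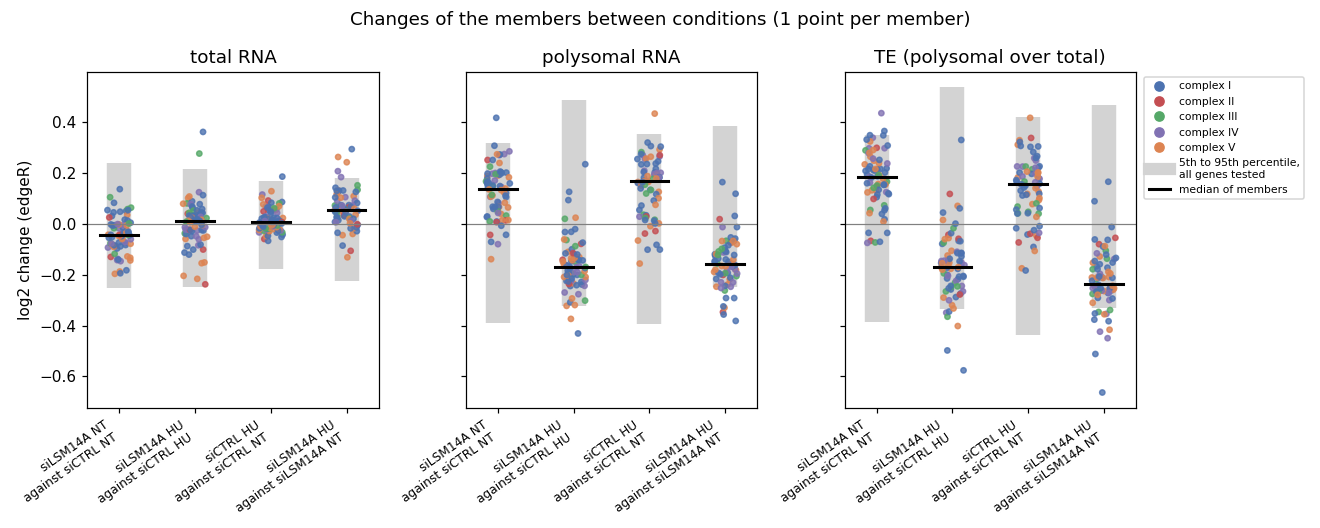
Log2 difference of each member (points) in total RNA, polysomal RNA and TE for the 4 pairwise comparisons between conditions, the interaction not plotted; the grey band runs from the 5th to the 95th percentile of all genes tested, the black line is the median over all members tested, and points of the low-count members NDUFA13 and NDUFV2 and of 1 further member are left out. Total RNA points lie in a narrow band around 0, and polysomal and TE medians of these comparisons lie between -0.24 and 0.18, with no member past an adjusted p of 0.05 in these fits, which hold no replicate block.

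The medians of the members in single cultures show the spread behind the polysomal and TE shifts. The member median of the log2 ratio was above 0 in 12 of 12 cultures, and it was highest in siLSM14A NT replicate 2 (0.61) and siCTRL HU replicate 2 (0.57), against 0.13 to 0.40 in the remaining cultures. In these cultures the medians were 0.47 and 0.39 for the other members and 1.03 and 1.28 for the core. The mtDNA median of these cultures was -2.07 and -2.95, and GC content correlated with the ratio over all genes at rho 0.68 in both, and the part of either in the members' medians was not tested.

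One gene of the chain outside the symbol rule differed between siRNAs in total RNA. CYCS, cytochrome c, which carries electrons from complex III to complex IV, was named after its values were seen, from the list of 3 genes that the symbols leave out. It was at 199, 219.7 and 203 CPM in siCTRL NT cells and 137, 160.5 and 155 in siLSM14A NT cells, and at 229, 234 and 201 in siCTRL HU and 139.6, 142 and 138 in siLSM14A HU cells, so siRNA groups did not overlap. The log2 difference was -0.46 ± 0.068 (edgeR adjusted p = 0.0130) in NT and -0.66 ± 0.061 (adjusted p = 0.000136) in HU cells. Under HU it was called in 14 of 14 alternatives, at -0.73 to -0.62, and in NT in 10 of 14, at -0.51 to -0.40. In NT the call was lost without siCTRL NT replicate 2 (edgeR adjusted p = 0.0642), without siCTRL NT replicate 3 (0.0890), without siLSM14A NT replicate 1 (0.0506) and with all 24 libraries in one fit (0.206). In polysomal RNA it was at -0.35 (adjusted p = 1.0 by edgeR) in NT and -0.41 (adjusted p = 0.739) in HU cells, and its TE was not called. CYC1 and NDUFAB1 were not called between conditions.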

How the data were processed

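RNA-seq was carried out on total and polysomal RNA of A2058 cells in 4 conditions with 3 replicates each. From stranded polyA libraries, the authors trimmed reads, mapped these with STAR 2.6.1a on hg19 and had STAR count reads per gene of Gencode v34. What they deposited are these raw counts, not normalized. Every sample column was used, and samples were grouped by their deposited labels.

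Symbols, coding sequences and coordinates came from Gencode 44 lifted to hg19. Of the 20345 genes of the table, 551 of another type and 708 whose IDs were not in this annotation stayed out of the tests, and so out of the library sizes used in them. In R 4.3.3, edgeR 4.0.16 (glmQLFit, glmQLFTest) was run with TMM factors after filterByExpr (minimum count 10, minimum total count 15), with Benjamini-Hochberg adjustment over all genes tested and a threshold of 0.05. Polysomal against total RNA was tested within each condition on its 6 libraries, single fractions on the 6 libraries of the conditions compared, and TE as the interaction of fraction and condition on 12 libraries, or 24 for the interaction of HU and siRNA. Log2 ratios per culture used normalized CPM, and levels per kb divided CPM by the joint length of all annotated exons or by that of the canonical transcript. Xtail, which the study used, was not run. The scripts were tested on simulated counts. Correlations used Python 3.11.15 and scipy 1.17.1.

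The members, core list, assembly factors, mtDNA genes and genes outside the symbol rule were chosen with earlier results of these data known. Named were the core members, the isoforms of particular tissues, the 5 highest and 5 lowest mean ratios and, in each comparison between conditions without a call, the 2 members with the smallest p in each direction. Others are named for the group they stand for. Of the members that these rules name, 1 enters the counts and medians but is not reported here by name or in the figures of single members.

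Replicates differed by more than sampling noise, with a chi-square per gene of 6.1 to 121.8 between replicates. No main fit held a replicate block, and the block was run as an alternative for every comparison. The labels do not say what a number shares. Same-numbered replicates were counted as deviating together where all 3 correlations of their deviations from the group means were over 0.1. This held for total RNA of siCTRL HU and siLSM14A HU (0.33, 0.18 and 0.25), for siCTRL NT and HU in total (0.27, 0.25 and 0.19) and polysomal RNA (0.25, 0.18 and 0.45), and for total and polysomal RNA of siLSM14A HU (0.17, 0.15 and 0.24). It also held for total RNA of siCTRL NT and siLSM14A HU (0.28, 0.20 and 0.16). Total RNA of siLSM14A HU and polysomal RNA of siCTRL NT deviated together as well (0.21, 0.15 and 0.22). The alternatives were DESeq2 1.42.0, RLE size factors, no filter, at least 10 counts in every library, all 24 libraries in one fit, the replicate or the culture as a block, a GC correction (loess of log2 CPM on exon GC content, span 0.3), block and GC correction together, and each replicate left out. Counts of 24789280 to 44897501 per library set the counting error, which is largest for NDUFV2, NDUFA13 and NDUFA7.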

Additional observations from a re-analysis of the deposited data

How the results depend on the processing

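Over the settings that kept every library, the members called between polysomal and total RNA were 44 to 52 in siCTRL NT, 49 to 52 in siCTRL HU, 45 to 61 in siLSM14A HU and 49 to 54 in siLSM14A NT. Between conditions the count was 0 without an alternative and stayed at 0 in all but 2 fits, which at this floor says nothing of stability. Both were in total RNA of siLSM14A HU against siCTRL HU, where 7 members were called with the replicate as a block and 7 with the replicate block and GC correction, against 0. No other count of calls was moved by the block to this extent. Same-numbered total and polysomal libraries of siLSM14A NT had correlations of -0.31, 0.11 and -0.23, so the log2 ratios of single cultures there rest on the replicate numbers in the labels alone. With each culture left out, the members called between polysomal and total RNA were 25 to 46 in siCTRL NT (48 with all), with 25 without replicate 2, and 32 to 48 in siLSM14A HU (51 with all), with 32 without replicate 1. They were 38 to 56 in siCTRL HU (51) and 34 to 50 in siLSM14A NT (50). Over the same fits the share of all genes called ran from 29.5 to 67.2% in siCTRL NT, 45.8 to 62.7% in siLSM14A HU, 62.6 to 72.2% in siCTRL HU and 40.8 to 66.1% in siLSM14A NT. Fewer libraries enter each of these fits.

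Some single values, none of them called, turned sign with the GC correction and with block and GC correction. NDUFA1 went from -0.17 to 0.16 and 0.15 in the ratio of siCTRL HU and from -0.23 to 0.048 and 0.017 in that of siLSM14A NT cells. The differences of NDUFA5 were taken to near 0: from 0.23 to -0.043 and -0.040 in polysomal RNA of siLSM14A HU against siCTRL HU, from -0.18 to 0.015 and 0.012 in TE of siCTRL HU against NT, from 0.17 to -0.0019 with GC correction in TE of siLSM14A HU against NT, and from 0.35 to -0.016 and -0.0031 in the TE interaction. ATP5PB went from 0.051 to -0.12 with both in the TE interaction, and NDUFS1 from 0.13 to -0.00016 with block and GC correction in polysomal RNA of siLSM14A HU against siCTRL HU. The cause was not tested.

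With 1 replicate left out, SDHD ran from -0.063 to 0.44 in the ratio of siCTRL HU and from -0.085 to 0.40 in TE of siLSM14A HU against siCTRL HU, and COX7A2L from -0.16 to 0.019 in TE of siLSM14A NT against siCTRL NT. In siCTRL HU against NT, NDUFA10 ran from -0.18 to 0.010 in polysomal RNA and NDUFA5 from -0.37 to 0.14 in TE. In siLSM14A HU against NT, NDUFA5 ran from -0.054 to 0.37 in polysomal RNA and from -0.0020 to 0.40 in TE, and NDUFS1 from -0.056 to 0.31 and from -0.085 to 0.30. In the interaction, NDUFA5 ran from -0.064 to 0.53 and NDUFS1 from -0.047 to 0.32 in polysomal RNA, and ATP5PB from -0.0013 to 0.12 in TE.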
